A study of Mus musculus with 4 samples.

Results

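The 40 S phase and DNA replication genes described here were chosen by name: each is a symbol of a list of genes known to peak while cells copy their DNA, and the rule used no measured value, though the list was chosen with earlier results of these data known. All 40 were found among the 13978 gene symbols of the matrix. Before a cell copies its genome, rings of MCM proteins are loaded onto the DNA, a step called licensing. In S phase the rings are switched on as helicases, polymerases copy the opened strands around the clamp PCNA, and newly made histones package the product. Blood stem cells divide rarely, while the progenitors they give rise to divide often, so the RNA of these genes is a usual reading of how many marrow cells are copying DNA.

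Host marrow cells from mice bearing B-cell acute lymphoblastic leukemia (B-ALL) were set against cells from mice without it. In the B-ALL environment, wild-type CD45.1 mice had been injected through the tail vein with 150000 primary tumor cells, taken from a lymph node of a leukemic CD45.2 mouse of the genotype Ebf1+/- Pax5+/-. The PBS control mice, of the same CD45.1 kind, received only phosphate-buffered saline. In both groups KIT+Lin-CD45.2-CD45.1+ bone marrow cells were sorted 3 weeks later, which keeps host progenitors and leaves out donor leukemia cells, and were profiled with the 10x Chromium 3' kit, version 3. The tumor cells come from 1 leukemic mouse, LN768, whose name the labels give as cell line for all 4 samples. Strain, age and sex are not given in the sources used here.

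Each group held 5882 cells, with 76059014 unique molecular identifiers (UMIs, each a counted RNA molecule) in the B-ALL environment and 68391214 in the PBS control. The labels name 2 samples a group, but the cells carry only the name of their group, so the mice within a group could not be separated and n is 1 in each. No difference below can be set against a spread between mice, and no test was made. Intervals are exact 95% intervals and cover counting error only. Cells of the B-ALL environment had 357 to 56671 UMIs (median 10458), and control cells 3070 to 48408 (median 10189). Under 3000 UMIs lay 3.04% of cells in the B-ALL environment and 0 of 5882 cells in the control, a count that allows a share of up to 0.051%. Mitochondrially encoded genes gave 5.14% of UMIs in the B-ALL environment and 3.56% in the control. Both groups shared 18 cell barcodes. The sort marker Kit stood at 209 CPM (UMIs scaled to a group total of 1000000) in the B-ALL environment and 365 CPM in the control. Of 8 B cell markers 3 were in the matrix, at 0.00515% of UMIs in the B-ALL environment and 0.00425% in the control; Ebf1, Pax5 and Cd79a were not analysed here. Igll1, a gene of pre-B cells, had 35 UMIs in the B-ALL environment and 19 in the control.

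Many promoters of S phase genes carry the letters that E2F factors bind. Promoters from RefSeq (build GRCm38.p6, 250 bases before to 50 bases after each start) were matched to 30 of the 40 members and searched on both strands for TTTCCCGC, TTTCGCGC, TTTGCCGC and TTTGGCGC. At least 1 of these was held by 12 of the 30 members (40%), by 14 of the 44 matched genes of a list of other replication genes (31.8%), by 3 of 46 G2/M genes (6.52%) and by 495 of the 10472 matched genes of the matrix (4.73%). The promoters of 5 members are shown, because they cover 2 helicase subunits whose folds over all cells lay on opposite sides of 0, the loader of the helicase, the member that followed S phase most closely among those with a match, and a member whose fold was above 0 in every class compared. Capitals mark the matches, and each window lies before a transcript start of RefSeq. For Cdc6 and Uhrf1 that start is not the outermost one, so their windows fall inside the annotated span of the gene. The windows are chr8:75109326-75109397 (plus strand), chr1:128359715-128359845 (minus strand), chr11:98907983-98908050 (plus strand), chr17:56304098-56304165 (plus strand) and chr4:32615264-32615331 (plus strand), in the order below.
Mcm5: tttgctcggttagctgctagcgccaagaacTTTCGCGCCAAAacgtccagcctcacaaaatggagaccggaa
Mcm6: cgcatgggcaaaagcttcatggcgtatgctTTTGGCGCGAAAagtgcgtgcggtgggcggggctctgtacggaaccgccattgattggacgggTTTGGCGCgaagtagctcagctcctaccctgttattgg
Cdc6: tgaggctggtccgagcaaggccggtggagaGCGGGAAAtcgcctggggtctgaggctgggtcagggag
Uhrf1: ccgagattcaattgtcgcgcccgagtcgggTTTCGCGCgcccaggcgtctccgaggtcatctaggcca
Casp8ap2: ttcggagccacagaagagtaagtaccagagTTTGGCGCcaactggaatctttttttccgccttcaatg
In Mcm5 and in the first block of Mcm6, 2 matches on opposite strands overlap, and Mcm6 holds 3 matches in all. These are matches of letters, not measured sites. The CCAAT box (CCAAT, both strands) was in 70% of members' promoters, 76.1% of those of G2/M genes and 42.9% of those of all genes, and the CHR (TTTGAA, both strands), typical of G2/M genes, in 20%, 71.7% and 14.8%.

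Over all cells the S phase genes took slightly more of the RNA in leukemic mice. Their 472361 UMIs were 0.621% of all UMIs in the B-ALL environment, and their 403712 UMIs were 0.590% in the PBS control, a ratio of 1.05 (interval 1.048 to 1.057). This direction turned with depth. Among cells of like depth the ratio was 0.981 (0.960 to 1.003) at 3000 to 6000 UMIs and 0.976 (0.966 to 0.987) at 6000 to 10000. It was 1.04 at 10000 to 16000 UMIs and 1.05 above. The groups also differ in which cells they hold, as HSC-like cells were 26.2% of cells in the B-ALL environment and 9.64% in the control, and early erythroid-megakaryocyte-like cells 8.67% and 16.3%. Splitting the difference exactly, the module share within classes contributed 0.0403 percentage points and the make-up of classes -0.00951. A different number of dividing cells and a different amount of this RNA per dividing cell cannot be told apart in such sums.

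Member by member the change was small and went both ways. A member was counted as higher or lower where its CPM differed by over 0.32 on the log2 scale. Of the 40 members 3 were higher (Rrm2, Ccne2 and Slbp) and 1 was lower (Dscc1), against 11.8% higher and 7.81% lower among the 8779 genes whose CPM averaged 10 or more. These shares of members, at or below those of all genes, do not set the list apart. With TMM factors Ubr7 was lower as well, which makes 2, and the share of all genes at that scaling is not given here. Log2 folds of the B-ALL environment over the control were above 0 for 26 members and below 0 for 14, with a median of 0.07, beside 0.02 for all genes.

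**Figure D1:**
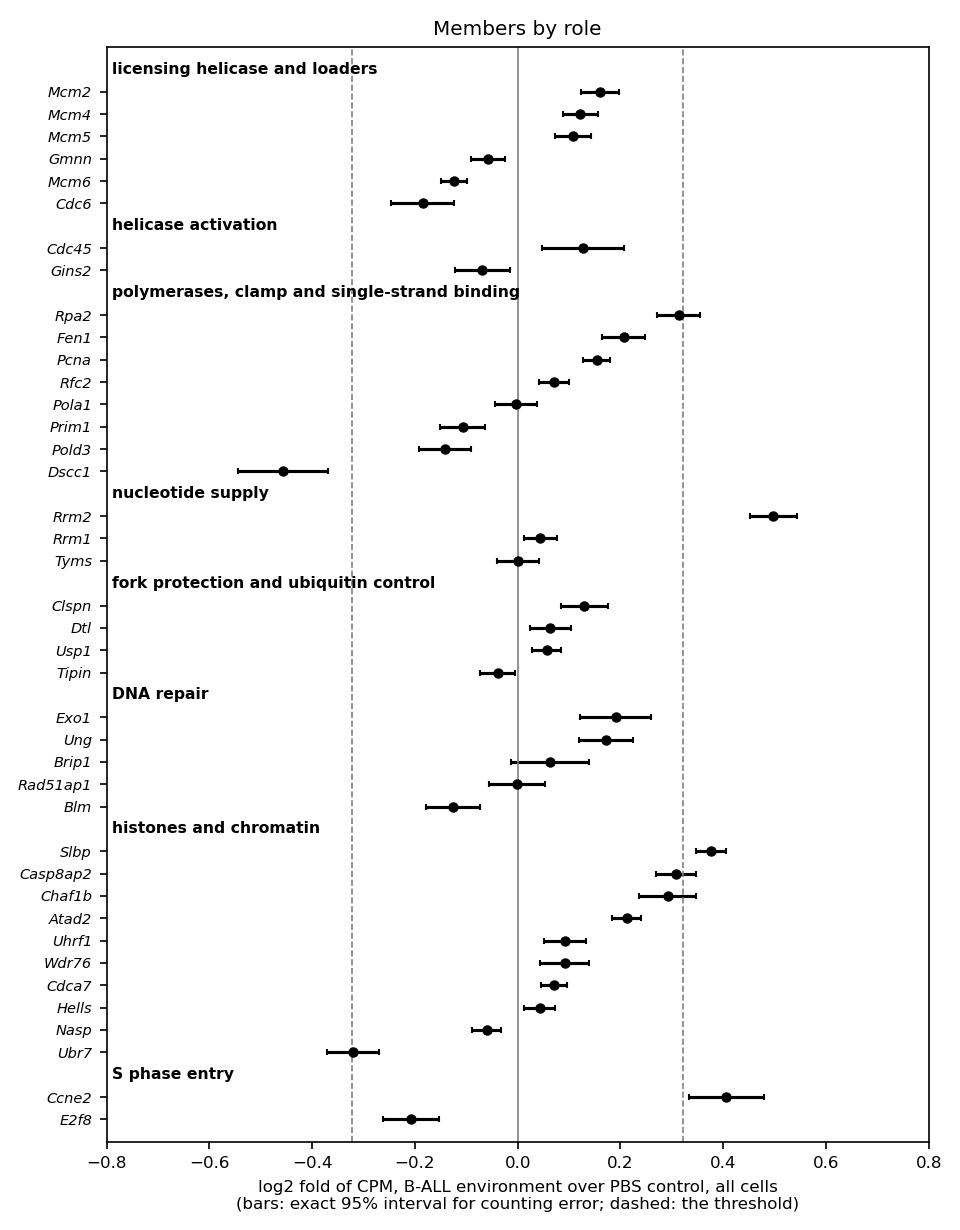
Log2 fold of CPM (x axis, B-ALL environment over PBS control, all cells) of each of the 40 members, grouped by role; points are the folds, bars exact 95% intervals for counting error and dashed lines the threshold of 0.32. Rrm2, Ccne2 and Slbp lie past the upper line and Dscc1 past the lower one.

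Among the genes that license origins, the subunits of the MCM2-7 helicase did not move alike. Mcm2 had 171 CPM in the B-ALL environment and 153 CPM in the control, Mcm4 198 and 182 CPM, and Mcm5 190 and 177 CPM. Mcm6 had 350 CPM in the B-ALL environment and 381 CPM in the control, the most UMIs of any member in both groups. The log2 folds were 0.16, 0.12 and 0.11 for the first 3 and -0.12 for Mcm6. The other 2 subunits, looked up after these values were seen, parted likewise, with Mcm3 at 0.18 and Mcm7 at -0.13. Cdc6, which loads the ring onto DNA, had 56.5 CPM in the B-ALL environment and 64.2 CPM in the control. Gmnn (geminin), which stops origins from being licensed again, had 197 CPM in the B-ALL environment and 205 CPM in the control. As a sum, these 6 genes had 0.116% of UMIs in both groups, with a ratio of 1.00 (0.991 to 1.01).

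Cdc45 and Gins2 join the MCM ring and turn it into the active helicase. Cdc45 had 37.0 CPM in the B-ALL environment and 33.9 CPM in the control, and Gins2 76.1 and 79.8 CPM, so that their sum had a ratio of 0.994 (0.964 to 1.03).

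The copying machinery was split, with 4 of 8 genes above 0 and 4 below, and its sum had a ratio of 1.06. Pcna, the sliding clamp, had 325 CPM in the B-ALL environment and 292 CPM in the control. Fen1, the nuclease that trims Okazaki fragments, had 136 CPM in the B-ALL environment against 118 CPM in the control. Rpa2, a subunit of the protein that coats single-stranded DNA, had 145 CPM in the B-ALL environment against 117 CPM in the control, a log2 fold of 0.31. Rfc2, of the loader that places PCNA, had a log2 fold of 0.07. The polymerase genes stood lower or level: Pola1, catalytic subunit of polymerase alpha, had a log2 fold of -0.0027, its primase partner Prim1 -0.11 and Pold3, a subunit of polymerase delta, -0.14. Dscc1, a subunit of an alternative clamp loader that also serves sister chromatid cohesion, had 25.7 CPM in the B-ALL environment and 35.3 CPM in the control, a log2 fold of -0.46 (-0.54 to -0.37). It was the lowest fold of the list.

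Supply of DNA building blocks held the highest fold. Rrm2, the subunit of ribonucleotide reductase whose level follows the cell cycle, had 131 CPM in the B-ALL environment and 92.7 CPM in the control, a log2 fold of 0.50 (0.45 to 0.54). Its partner Rrm1, the large subunit, had 225 CPM in the B-ALL environment and 218 CPM in the control. Tyms, which makes thymidylate, had 135 CPM in both. The 3 genes therefore did not move as a block.

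Genes that guard the fork, and those of ubiquitin control, differed little. Clspn (claspin), a mediator of the replication checkpoint, had a log2 fold of 0.13, Dtl, which helps destroy licensing factors in S phase, 0.06, Usp1, which removes ubiquitin from PCNA, 0.06, and Tipin, of the fork protection complex, -0.04. Among repair genes, the nuclease Exo1 had 49.5 CPM in the B-ALL environment and 43.4 CPM in the control, and Ung, which takes uracil out of DNA, 88.6 and 78.6 CPM. The helicase Blm had 76.6 CPM in the B-ALL environment and 83.6 CPM in the control. Brip1, another helicase of repair, and Rad51ap1, a gene of recombination repair, had intervals that held 0.

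The 10 genes of histones and chromatin held 32.7% of the module's UMIs in the B-ALL environment and 31.7% in the control, and 8 of them had folds above 0. Slbp, which binds the stem-loop at the end of histone mRNA, had 297 CPM in the B-ALL environment and 229 CPM in the control, a log2 fold of 0.38 (0.35 to 0.41). Casp8ap2, known in human cells as FLASH and needed to process that end, had 164 CPM in the B-ALL environment against 133 CPM in the control, a log2 fold of 0.31. Chaf1b, of the complex that lays histones on new DNA, had 82.5 CPM in the B-ALL environment and 67.4 CPM in the control. Atad2, a bromodomain ATPase, had 317 CPM in the B-ALL environment and 273 CPM in the control. Genes that keep DNA methylated through replication were close to level: Uhrf1 had a log2 fold of 0.09, the remodeler Hells 0.04 and its partner Cdca7 0.07. Wdr76 had 0.09 and the histone chaperone Nasp -0.06. Ubr7, a ubiquitin ligase of the UBR family, had 78.4 CPM in the B-ALL environment and 97.8 CPM in the control, a log2 fold of -0.32, just inside the threshold.

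The 2 genes of S phase entry had folds on opposite sides of 0, and only Ccne2 passed the threshold. Ccne2 (cyclin E2), which drives cells into S phase, had 48.9 CPM in the B-ALL environment and 36.9 CPM in the control, a log2 fold of 0.41 (0.33 to 0.48). E2f8, a repressor that shuts E2F targets off, had 68.2 CPM in the B-ALL environment and 78.7 CPM in the control, a log2 fold of -0.21.

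Cells were split into classes by clustering the authors' map and naming clusters from marker genes. The S phase share differed among classes, and the order of classes was not the same in the groups. In the control it ran from 0.484% in basophil and mast cell-like cells to 0.638% in monocyte progenitor-like cells. In the B-ALL environment it ran from 0.491% in basophil and mast cell-like cells to 0.705% in early erythroid-megakaryocyte-like cells among the named classes. Of the 11 classes HSC-like cells ranked 10 in the B-ALL environment (0.515%) and 8 in the control (0.547%). Since the sources used here do not say which genes the map was built from, members may have helped to draw these classes.

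**Figure D2:**
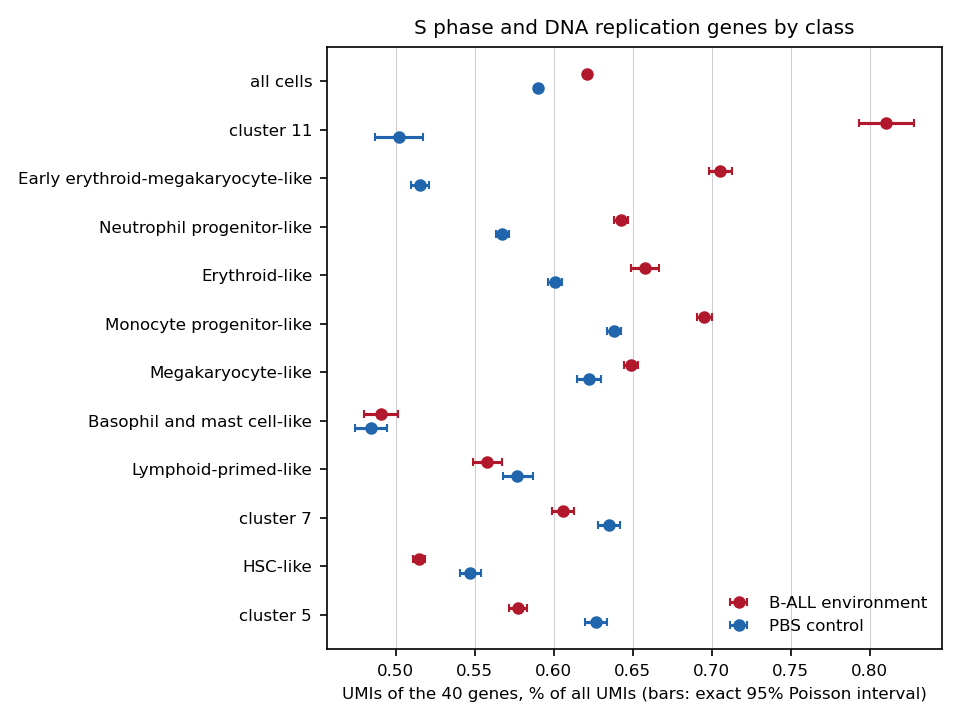
UMIs of the 40 genes as a percent of all UMIs (x axis) in all cells and in 11 classes (rows), for the B-ALL environment (red, upper point of a row) and the PBS control (blue); bars are exact 95% Poisson intervals. Points of the B-ALL environment lie to the right in 6 classes and to the left in 4, and the intervals overlap in basophil and mast cell-like cells.

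Within classes drawn from the map, the S phase share was higher in leukemic mice for erythroid, neutrophil and monocyte progenitor-like cells. Ratios under other definitions of a class were worked out only for HSC-like and early erythroid-megakaryocyte-like cells. Whether the other directions hold under them was not tested. It was lower for lymphoid-primed-like cells as a sum, though not at every depth. Of the 11 classes that could be compared, each with 30 or more cells per group, 6 had a ratio above 1, 4 below 1 and 1 within counting error of 1, and all 10 of these directions were the same with TMM factors. Among classes above 1, neutrophil progenitor-like cells had 0.643% in the B-ALL environment and 0.568% in the control, erythroid-like cells 0.658% and 0.601%, monocyte progenitor-like cells 0.695% and 0.638%, and megakaryocyte-like cells 0.649% and 0.622%. The ratios were 1.13, 1.10, 1.09 and 1.04. For the list of other replication genes they were, in the same order, 1.07, 1.00 (0.987 to 1.02), 1.03 and 1.05. That list thus did not differ beyond counting error in erythroid-like cells. Megakaryocyte-like cells turned with depth, since their S phase share was lower in the B-ALL environment in each of the 3 bins up to 16000 UMIs and higher above. Below 1 were HSC-like cells (0.941), lymphoid-primed-like cells (0.967), cluster 5, led by Vldlr and Adgrl4 (0.921), and cluster 7, led by Ccl9 and Cxcr2 (0.954). Lymphoid-primed-like cells turned with depth as well, with ratios of 0.999, 0.889 and 0.813 in the 3 bins up to 16000 UMIs and 1.06 above. None of these differences was tested across mice. Depth was also higher in several of these classes, with a median of 19396 UMIs in the B-ALL environment and 15704 in the control for neutrophil progenitor-like cells, and 13034 and 7948 for megakaryocyte-like cells. Within each group the S phase share itself grew with depth, from 0.345% in the shallowest quartile to 0.676% in the deepest quartile of cells of the B-ALL environment, and from 0.339% to 0.645% in the control.

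Early erythroid-megakaryocyte-like cells, led by Csrp3, St8sia6 and Mfsd2b, showed the highest ratio among named classes. Their S phase genes made up 0.705% of UMIs in the B-ALL environment (510 cells) and 0.515% in the control (961 cells), a ratio of 1.37 (1.35 to 1.39). Of the 40 members 30 were higher and 0 lower, against 16.7% higher and 18% lower among 8800 genes in that class, and the median log2 fold was 0.49, beside -0.02 for all genes. Rrm2 had 90.6 CPM in the B-ALL environment and 45.9 CPM in the control, Exo1 58.6 and 32.4 CPM, Cdca7 356 and 207 CPM, Rpa2 161 and 95.1 CPM, and Uhrf1 172 and 103 CPM. By role, histone and chromatin genes and those of nucleotide supply had ratios of 1.49 and 1.51, the licensing genes 1.27, and the pair of S phase entry genes 0.931, with E2f8 at 110 CPM in the B-ALL environment and 137 CPM in the control. Mki67, a marker of cycling cells, had 803 CPM in the B-ALL environment and 434 CPM in the control. Top2a, read beside it, differed less, with 777 CPM in the B-ALL environment and 581 CPM in the control. The G2/M genes as a sum were 1.05% of UMIs in the B-ALL environment and 0.938% in the control, a ratio of 1.12. Among inhibitors of entry into S phase, Cdkn1b had 98.8 CPM in the B-ALL environment and 178 CPM in the control, while Cdkn1a had 21.8 and 4.93 CPM and Cdkn1c 3.46 and 1.94 CPM. Depth moved with this class too, at a median of 8446.5 UMIs per cell in the B-ALL environment and 5943 in the control. Among cells of like depth the ratio was 1.55 at 3000 to 6000 UMIs and 1.08 at 6000 to 10000. At 10000 to 16000 UMIs the shares were 0.827% in the B-ALL environment and 0.660% in the control, and above that 0.701% and 0.650%. The share was thus higher at every depth, by an amount that differed between bins. In the 2 finer clusters that make up most of this class the shares were also higher, with a ratio of 1.36 in the first and 0.744% in the B-ALL environment against 0.594% in the control in the second.

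Neutrophil progenitor-like cells showed a narrower change. Of the 40 members 10 were higher and 1 lower, against 8.65% and 9.18% of 8194 genes, with a median log2 fold of 0.19, beside 0.01 for all genes. Rrm2 had 209 CPM in the B-ALL environment and 113 CPM in the control, Ccne2 60.2 and 36.7 CPM, and Fen1 156 and 108 CPM. The lower member was again Dscc1, at 20.2 CPM in the B-ALL environment and 30.5 CPM in the control. Within bins of depth the ratio was 1.18 at 6000 to 10000 UMIs, 1.11 at 10000 to 16000 and 1.10 above.

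In HSC-like cells, the closest to stem cells on their markers, the direction of the S phase share depended on how the class was drawn. By clusters of the map it was 0.515% in the B-ALL environment (1539 cells) and 0.547% in the control (567 cells), a ratio of 0.941 (0.927 to 0.954), with 0 members higher and 2 lower (Dscc1 and E2f8), against 17.2% higher and 10.8% lower among 9224 genes. With TMM factors 5 were lower, and the share of all genes at that scaling is not given here. At the scaling to total UMIs the share of members called was below that of all genes in both directions. There 14 members had folds above 0 and 26 below, with a median log2 fold of -0.13, beside 0.02 for all genes. Dscc1 had 24.5 CPM in the B-ALL environment and 40.8 CPM in the control, and E2f8 35.5 and 48.9 CPM. Nasp, Pola1 and Hells had log2 folds of -0.30 each, while Casp8ap2 had 0.31 and Fen1 0.28. When each cell was classed by its own marker UMIs instead, the share was 0.480% in the B-ALL environment (1368 cells) and 0.442% in the control (188 cells), a ratio of 1.09 (1.06 to 1.12). With clusters of values centred within groups, without genes that differed between groups, it was 0.284% in the B-ALL environment (846 cells) and 0.277% in the control (378 cells), a ratio of 1.02 (0.995 to 1.05). The last grouping put cells led by mitotic genes into 2 unnamed clusters and left 1 more, with Socs2 and Ly6a among its leading genes (691 cells in the B-ALL environment and 92 in the control), out of the HSC-like class. The S phase share of its HSC-like cells was near 0.28% in both groups, well below that of the map's. No direction for HSC-like cells is therefore given here.

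The map's HSC-like class joins 2 clusters that differ in the cell cycle. Cluster 1, the one led by Socs2, Ly6a, Hlf and Mecom, held 1121 of the 1539 cells in the B-ALL environment and 346 of the 567 in the control, with an S phase ratio of 0.920. Cluster 8, led by Ptms and the mitotic gene Ccnb2, with Aspm and Cenpf among its leading genes, had a ratio of 0.970. In cluster 1 cells of like depth had ratios of 0.852, 0.731 and 0.791 in the 3 bins from 3000 to 16000 UMIs, and in cluster 8 of 1.18, 1.10 and 0.932. G2/M genes in HSC-like cells were 0.831% of UMIs in the B-ALL environment and 0.979% in the control by the map, but 0.797% in the B-ALL environment and 0.658% in the control by marker UMIs, so their direction turned with the definition too. Within the class Socs2, which leads cluster 1, had 227 CPM in leukemic mice and 7.42 CPM in control mice, so genes that define the cluster also differ between groups.

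Cluster 5 was given no name, and markers of multipotent progenitors were enriched in it more than HSC markers. It had 0 members higher and 6 lower, against 16.1% and 9.72% of 8887 genes. Its median log2 fold was -0.13, beside 0.03 for all genes. With TMM factors 10 were lower, and the share of all genes at that scaling is not given here. Cluster 11 had the highest ratio of any class, with 0.810% in the B-ALL environment (134 cells) and 0.502% in the control (169 cells), a ratio of 1.61. It is led by immunoglobulin and globin genes and was given no name. Globin genes gave 2.95% of its RNA in leukemic mice and 0.140% in control mice, and 59 of its cells in the B-ALL environment had under 3000 UMIs. Without those cells its ratio was 1.65. Their part in the result was not tested. With clusters of values centred within groups, genes that lead cluster 11 parted by group. Igkc and globin genes led a cluster of 51 cells in the B-ALL environment and 0 in the control. By its markers that cluster was named macrophage-like, and its cells had a median of 686 UMIs. Gm11505 and Tsix led another, of 1 cell in the B-ALL environment and 127 in the control. Whether cluster 11 holds the same kind of cell in both groups was not tested.

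**Figure D3:**
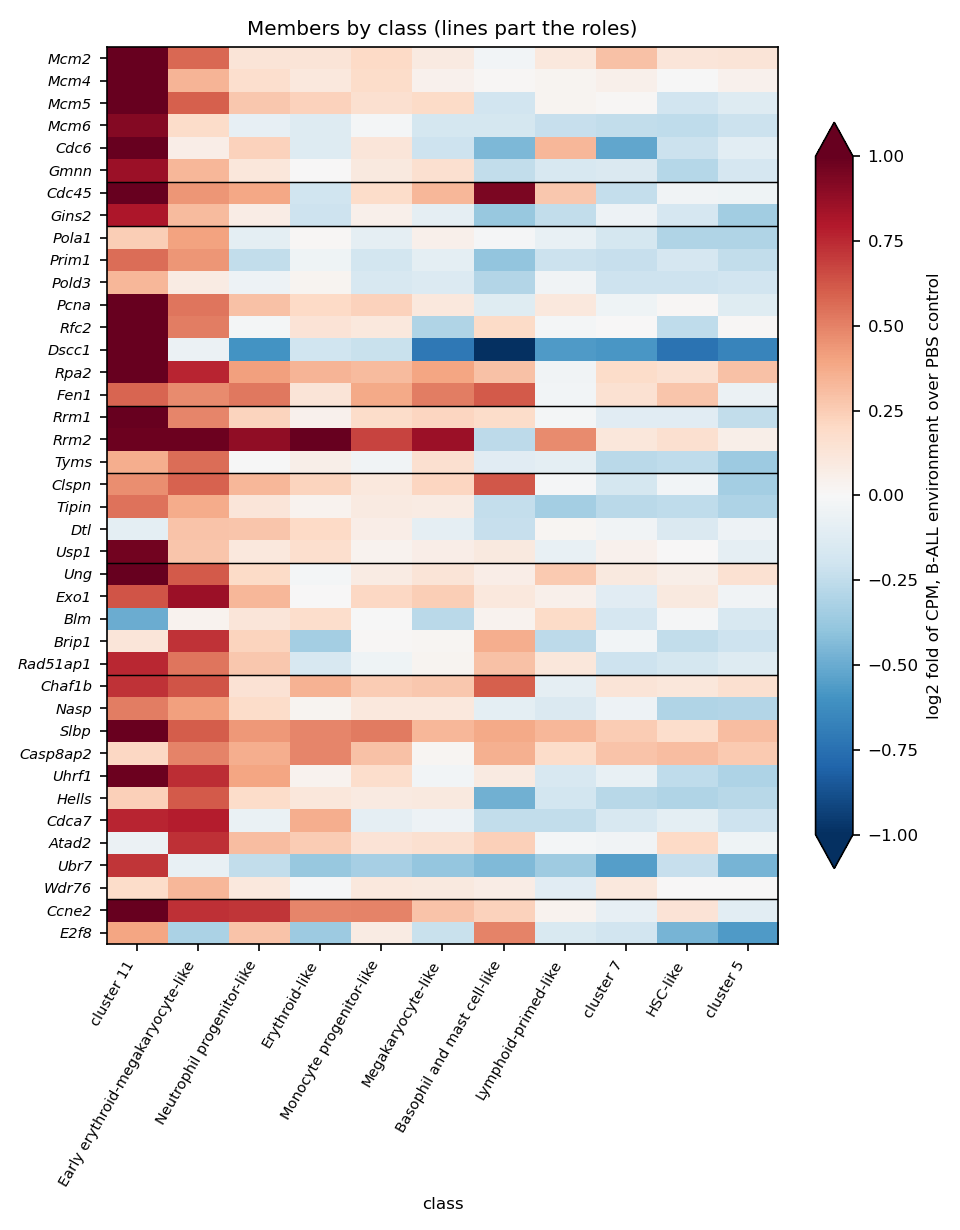
Log2 fold of CPM (colour, B-ALL environment over PBS control) of each member (rows, grouped by role) in 11 classes (columns, ordered by the ratio of the summed share); colours are capped at 1 on both sides. Most members are red in cluster 11 and in early erythroid-megakaryocyte-like cells, Dscc1 and Ubr7 are blue in nearly all other classes, and Slbp is red throughout.

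A few members kept their direction across classes whatever the sum did. Slbp and Casp8ap2 had folds above 0 in all 11 classes, also with TMM and DESeq2 factors, and no member was below 0 in all. Slbp ranged from 0.18 in HSC-like cells to 0.98 in cluster 11, and Casp8ap2 from 0.02 in megakaryocyte-like cells to 0.49 in early erythroid-megakaryocyte-like cells. Rrm2 was above 0 in 10 classes, at sizes that differed between them. Its folds were 0.67 to 1.03 in the monocyte, neutrophil, megakaryocyte and both erythroid classes, and 0.06 to 0.16 in HSC-like cells, cluster 5 and cluster 7. Lymphoid-primed-like cells had 0.47, cluster 11 had 0.98, and basophil and mast cell-like cells -0.26. Dscc1 and Ubr7 were each below 0 in 10 classes, with medians of -0.58 and -0.35, and above 0 in cluster 11. Mcm6 was below 0 in 9 classes, while Mcm2 was above 0 in 10 and Mcm4 in 10, or in 9 with DESeq2 factors.

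**Figure D4:**
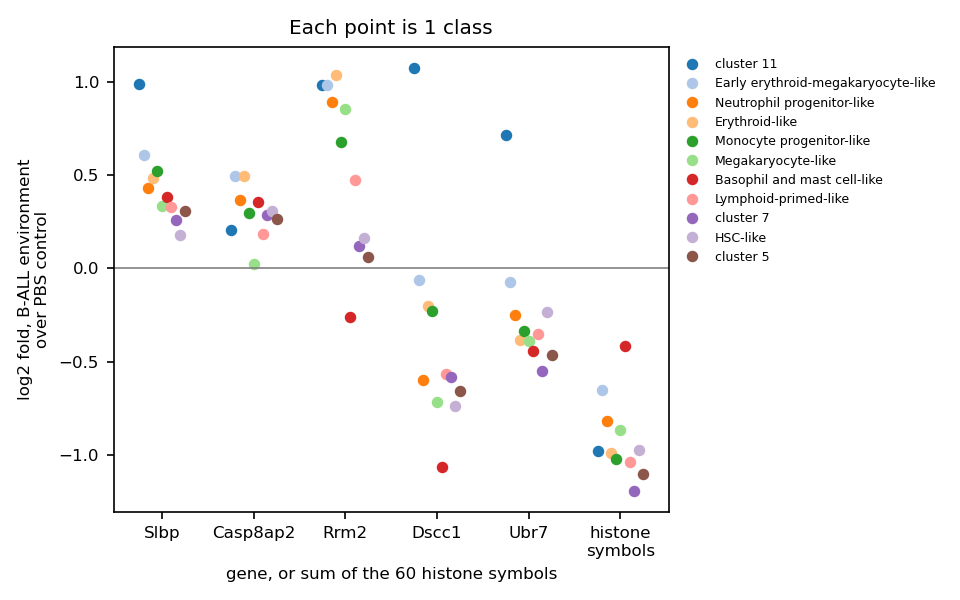
Log2 fold (y axis, B-ALL environment over PBS control) of 5 members and of the sum of 60 histone symbols, with 1 point for each of 11 classes. All points of Slbp and Casp8ap2 lie above 0 and all points of the histone sum below, from ratios of 0.438 to 0.750.

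Histone genes, the targets of Slbp and Casp8ap2, ran the other way. Replication-dependent histone mRNAs end in a stem-loop and mostly lack the poly(A) tail that a 3' kit captures, so the UMIs counted here are of the part that was captured. The 60 symbols of the Hist1h, Hist2h, Hist3h and Hist4h families, looked up after Slbp was seen, were 0.332% of UMIs in the B-ALL environment and 0.638% in the control. Of the 36 that averaged 10 CPM or more, 0 were higher and 33 lower, with a median log2 fold of -1.22. Among all 8779 genes at that level over all cells, 11.8% were higher and 7.81% lower, with a median of 0.02. Hist1h1b had 612 CPM in the B-ALL environment and 1033 CPM in the control, and Hist1h4h 41.6 and 219 CPM. The sum was lower in all 11 classes, and it was 0.349% in the B-ALL environment against 0.687% in the control among cells with a high S phase count, and 0.306% in the B-ALL environment against 0.565% in the control among the others. No cause was tested.

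To compare cells at one depth, each cell was thinned to 3000 UMIs, which left out 179 cells of the B-ALL environment and 0 of the control. A median of 16 of the 3000 UMIs came from the 40 genes in the B-ALL environment and 15 in the control. At least 15 were found in 53.5% of cells (52.2 to 54.8) in the B-ALL environment and 51.6% (50.3 to 52.8) in the control, and before thinning 53.3% and 50.8% of cells had that share. The difference was 1.95 percentage points (0.13 to 3.77). With at least 20 UMIs it was 2.85 points, and with at least 10 it was -0.54 points (-2.21 to 1.13), within counting error of 0. The spread was wider there, with an SD across cells of 10.2 UMIs, against 9.11 UMIs in the control. Within 2 UMIs of 15 lay 927 cells of the B-ALL environment and 1009 of the control. No class lacked these genes, so the part that free RNA gives to such counts was not measured.

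**Figure D5:**
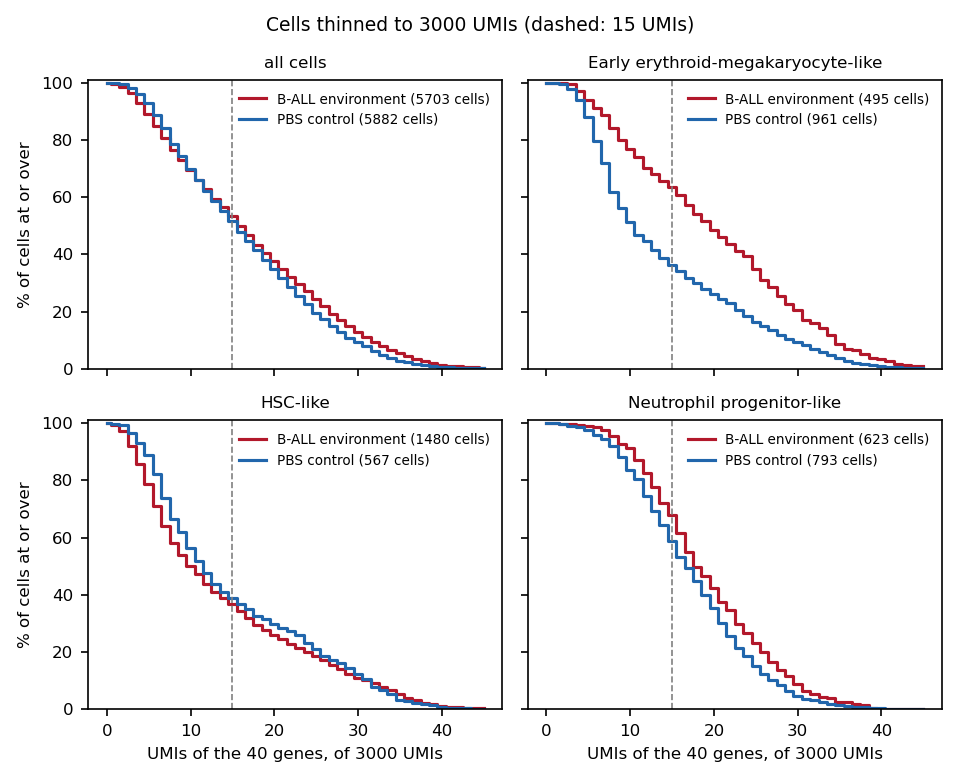
Percent of cells (y axis) with at least a given number of UMIs of the 40 genes among 3000 (x axis), for all cells and 3 classes, in the B-ALL environment (red) and the PBS control (blue); the dashed line is 15 UMIs. The curves cross for all cells and lie far apart for early erythroid-megakaryocyte-like cells (63.4% and 36.3% at the line). For HSC-like cells of the map they are close together at the line (36.8% and 38.8%) but apart below it (71.1% and 82.4% at 6 UMIs).

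Set beside 52 G2/M genes counted in the same thinned cells, S phase and mitotic RNA did not shift together everywhere. In early erythroid-megakaryocyte-like cells, 46.3% of cells in the B-ALL environment and 28.0% in the control had at least 15 UMIs of both lists, and 13.9% and 27.6% had only the G2/M genes that high. In neutrophil progenitor-like cells both lists were high in 48.3% of cells in the B-ALL environment and 33.7% in the control. HSC-like cells of the map had both low in 49.3% in the B-ALL environment and 37.9% in the control. Those with S phase genes alone high were 17.6% and 12.9%. In cluster 1 of that class both were low in 62.4% and 54.9%, and in cluster 8 in 14.0% and 11.3%. Other definitions of the class were not compared in this way, so no direction is given for it. A count of UMIs above a line is not a phase of the cell cycle.

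Other genes of the same process were read from lists, to be set against the 11.8% of all genes that were higher over all cells and the 7.81% that were lower. Of 51 other replication genes, 1 was higher and 1 lower over all cells, with a median log2 fold of -0.01. The ends of that list were Asf1b, a histone chaperone, with 64.5 CPM in the B-ALL environment and 49.0 CPM in the control, and Timeless, the partner of Tipin at the fork, with 57.6 and 74.2 CPM. Of 17 genes of S phase entry control with at least 10 CPM, 4 were higher and 1 lower. These were Cdkn1a (p21), an inhibitor induced by p53, at a log2 fold of 0.68, E2f7, the close relative of E2f8, at 0.63, Skp2, which helps destroy Cdkn1b, at 0.36, Ccna2 (cyclin A2) at 0.36, and Rb1, the retinoblastoma protein that holds E2F factors back, at -0.37. E2f7 and E2f8 thus lay on opposite sides of 0. Of 51 G2/M genes 10 were higher and 1 lower over all cells, with Gas2l3 at 0.77 and Cks2 at -0.44. In HSC-like cells of the map, 1 of the G2/M genes was higher and 16 lower, and of the 51 other replication genes 1 was higher and 8 lower, where 17.2% of all genes were higher and 10.8% lower. The direction of the G2/M sum turned when cells were classed by marker UMIs.

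Members also differed in how closely they followed S phase. Within each class, thinned cells were ranked by the UMIs of the other 39 members, and the top quartile was set against the bottom quartile. Dscc1 had 14.3 times as many UMIs in the top quartile in the B-ALL environment and 8.08 times in the control, Ccne2 14.0 and 9.69 times, Ung 9.76 and 6.51 times, and Uhrf1 9.30 and 8.44 times. The flattest were Casp8ap2, with 2.01 times in the B-ALL environment and 1.85 times in the control, Cdca7 with 2.06 and 2.16, and Ubr7 with 2.12 and 1.76. All 40 were above 1 in both groups, which is what the name of the list says of them. Dscc1 and Ubr7, the members with the lowest folds over all cells, thus stood near opposite ends of this order.

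Over the 22 sums of a class in a group, each member was set against the module's log2 CPM, which includes that member. Pcna followed it most closely among members (Pearson r 0.89), with Uhrf1 and Rrm1 next (0.88 each), while E2f8 (-0.03) and Blm (-0.02) did not follow it. E2f8 was highest in basophil and mast cell-like cells, with 206 CPM in the B-ALL environment and 146 CPM in the control, where the module was lowest among named classes. Blm was highest in early erythroid-megakaryocyte-like cells in both groups, with 159 CPM in the B-ALL environment and 156 CPM in the control. Of genes outside the lists, which have no part in the module's sum, the most alike were Ipo5 (0.88), Supt16 (0.78), Cse1l (0.77), Parp1 (0.76), Tubg1 (0.76), Lrr1 (0.76), Nap1l1 (0.75), Cenps (0.75), Slc35a4 (0.75) and Aunip (0.74). These points share libraries and depth, and the values are descriptions without a test.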

How the data were processed

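The deposited table pooled all cells and held UMI counts per gene and cell, which the authors made with Cell Ranger 4 and Seurat 4.0.1 on build mm10, per the submitters' processing notes. The filters on cells and genes, and how the map was built, are not given in the sources used here. The authors' cell table gave each cell a group prefix and coordinates of their UMAP, an arbitrary scale with no unit; the prefix tm was read as the tumor environment, the only group left beside pbs. No column of other samples was used (0 found). The 40 members and all lists were chosen with earlier results of these data known.

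UMIs were summed per group and class, CPM were counts over total UMIs times 1000000, and log2 folds were called past 0.32 among genes that averaged 10 CPM or more. Depth was 76059014 UMIs in the B-ALL environment and 68391214 in the PBS control, and ratios have exact conditional intervals, sums exact Poisson intervals and shares Clopper-Pearson intervals, all at 95%, for counting error only. Classes came from Leiden clusters of the authors' map (30 neighbours, resolution 0.3; scanpy 1.11.5, leidenalg 0.10.2, igraph 0.11.9), named where at least 3 detected markers of a list were enriched by 0.5 on the log2 scale, with no list enriched more. No doublets were removed; an alternative left out the top 5% of cells by UMIs. Cells were thinned to 3000 UMIs without replacement (seed 1), and at least 15 member UMIs counted as high. TMM factors (edgeR 4.0.16) and DESeq2 1.42.0 size factors were alternatives on the sums, with no test from either. Other tools were Python 3.11.15, numpy 2.4.6, scipy 1.17.1, pandas 2.3.3, matplotlib 3.10.9 and R 4.3.3. The scripts were tested on simulated data. Genes were named as follows: all 40 members, the 4 highest and 4 lowest folds of each other list over all cells where a count turns on them, Mki67, the 10 most alike genes outside the lists and genes used for depth or marker checks. Coordinates and promoters are from RefSeq on GRCm38.p6, the assembly that mm10 names.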

Additional observations from a re-analysis of the deposited data

Results flagged for a closer look

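The direction of the S phase share differed between classes of cells under the same contrast, which is why these results call for a closer look. Classes here are those of the map unless another definition is named. The share in leukemic mice, divided by that in control mice, was 1.37 in early erythroid-megakaryocyte-like cells, 1.10 in erythroid-like cells, 1.04 in megakaryocyte-like cells, 1.09 in monocyte progenitor-like cells, 1.13 in neutrophil progenitor-like cells and 1.61 in cluster 11. It was 0.967 in lymphoid-primed-like cells as a sum but 1.06 in those above 16000 UMIs, 0.921 in cluster 5 and 0.954 in cluster 7. HSC-like cells had 0.941 by clusters of the map and 0.910 at resolution 0.6, but 1.64, 1.09 and 1.02 under the other definitions of the class. No direction is therefore given for them. Whether cluster 11 holds the same kind of cell in both groups was not tested. Whether these ratios differ from each other was not tested, because the cells carry no label of the sample they came from. Megakaryocyte-like cells were lower in each of the 3 bins of depth up to 16000 UMIs, with 0.591% in the B-ALL environment and 0.631% in the control at 6000 to 10000 UMIs, and higher above 16000, with 0.658% in the B-ALL environment and 0.582% in the control.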

How the results depend on the processing

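No paired analysis was possible because the cells carry no replicate number, and for the same reason no replicate could be left out. The all-cell ratio of the S phase share (1.05) was 1.03 with TMM factors, 1.03 with DESeq2 size factors, 1.07 without mitochondrially encoded genes in the total and 1.06 without Mcm6. In HSC-like cells the ratio (0.941) was 0.918 with TMM factors and 0.910 with map clusters at resolution 0.6. It was 1.64 with clusters of centred values, which left 88 control cells, 1.09 with each cell classed by its marker UMIs, and 1.02 with centred values without differing genes, a grouping chosen after seeing the data. In early erythroid-megakaryocyte-like cells the ratio (1.37) was 1.24 at resolution 0.6, 1.31 by marker UMIs and 1.08 at 6000 to 10000 UMIs alone, 3 settings also chosen after seeing the data. The part of the all-cell difference within classes (0.0403 percentage points) was 0.0353 at resolution 0.6, 0.0711 with centred values and 0.0553 by marker UMIs. Over all cells, 1.5-fold left 0 members higher and 0 lower, and 2 were lower with TMM factors and 2 with DESeq2 factors. In HSC-like cells the number of lower members (2) was 1 at 1.5-fold, 5 with TMM factors, 5 with DESeq2 factors, 0 with centred values and 1 by marker UMIs, and the number of higher members (0) was 34 with centred values and 4 by marker UMIs. Shares of all genes are not given at these other settings, so these counts of members have no background beside them. The difference in the share of cells with a high count (1.95 percentage points) was -0.54 with a line at 10 UMIs. Folds close to 1 changed side for Pola1 (1.00) and Rad51ap1 (1.00) without cells under 3000 UMIs and for Tyms with TMM (0.976) and DESeq2 factors (0.975). The cause was not tested. Of the folds of single genes under other settings, 88 stayed within the counting error of the fold reported, 28 moved by more and 4 changed side.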
